A study of Mus musculus with 24 samples.

Results

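Transcripts of 8 genes of cholesterol synthesis and of its control by SREBP2 were followed in the kidney inner medulla of mice given saline or cisplatin. The genes were Srebf2, Insig1, Hmgcs1, Idi1, Fdft1, Sqle, Lss and Dhcr7. They were chosen by name, with earlier results of these data known. All 8 were found by symbol among the 55416 gene identifiers of the count matrix and had enough counts to be tested. The mice were C57BL/6, a common inbred laboratory strain, of 9 to 10 weeks of age. Every animal had a single intraperitoneal injection of 100 µl and was killed 72 h later. Controls received saline. Treated animals received cisplatin, a platinum drug that injures kidney tubules, at 15 mg/kg in saline. Libraries of poly(A)-selected RNA numbered 6 from males given saline, 6 from males given cisplatin, 7 from females given saline and 5 from females given cisplatin. The labels do not say that each library came from its own mouse, so p-values measure the spread between libraries. A lower level in this bulk tissue can come from fewer cells of a type or from less RNA per cell, which cannot be told apart here.

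SREBP2, the protein of Srebf2, is a membrane-bound transcription factor that switches on the genes of cholesterol synthesis and uptake. When sterols are scarce in the endoplasmic reticulum, its escort SCAP carries it to the Golgi apparatus, where proteases release the active fragment. When sterols are plentiful, INSIG proteins hold SCAP and SREBP2 in the endoplasmic reticulum. Insig1 is itself a target of SREBP2, as are Srebf2 and the genes of the synthetic enzymes, so these transcripts tend to move together when the sterol supply of a cell changes. Collecting ducts, thin limbs of the loop of Henle, interstitial cells and capillaries make up the inner medulla, the deepest part of the kidney.

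Total counts per library ranged from 18.1 to 27.3 (in units of 1000000 counts). Markers of collecting duct principal cells were present throughout, with summed levels of 5560 to 11800 CPM (counts per 1000000 counts of the library) over 9 genes. Thick ascending limb markers, which belong to the outer medulla and cortex, were also present at 937 to 13900 CPM over 6 genes, so the dissected tissue was not inner medulla alone. Proximal tubule markers summed to 78.5 to 1190 CPM over 16 genes. Tubular injury genes rose in males in 8 of 11 tested and in females in 2 of 11 (edgeR quasi-likelihood test, Benjamini-Hochberg adjusted p under 0.05, which is the threshold used throughout). Of all tested genes, 13.2% rose in males and 0.2% in females. In 2 libraries labelled cisplatin the level of Lcn2, a tubular injury gene, was close to that of saline libraries, which held 49.4 to 129 CPM: female cisplatin 2 held 111 CPM and female cisplatin 3 held 122 CPM. Male cisplatin 6 held 213 CPM, and the other cisplatin libraries 546 to 6590 CPM. Male cisplatin 5, female saline 1 and female saline 6 had been seen to differ in composition in an earlier examination of these data, and counts without them are given with the tissue markers.

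The promoter windows of the 3 genes that fell in males are shown to place their start sites and the letters of SREBP2-related motifs. RefSeq windows (GRCm38.p6, 250 bases before to 50 after the start, 300 bases in all) were at hand for 6 of the 8 genes. Capitals mark TCACNCCAC (a sterol regulatory element), CACGTG (an E-box) and CCAAT (the NF-Y box, ATTGG on the other strand). SREBP2 binds sterol regulatory elements, and NF-Y is a frequent partner. The windows are chr5:28071162-28071461 for Insig1, chr13:119690101-119690400 for Hmgcs1 and chr13:8885356-8885655 for Idi1, all on the plus strand.
Insig1: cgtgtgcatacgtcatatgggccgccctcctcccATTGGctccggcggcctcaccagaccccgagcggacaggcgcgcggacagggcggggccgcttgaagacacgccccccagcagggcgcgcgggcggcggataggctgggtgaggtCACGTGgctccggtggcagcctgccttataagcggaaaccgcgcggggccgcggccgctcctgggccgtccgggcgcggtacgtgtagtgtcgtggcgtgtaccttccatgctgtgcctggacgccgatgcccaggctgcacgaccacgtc
Hmgcs1: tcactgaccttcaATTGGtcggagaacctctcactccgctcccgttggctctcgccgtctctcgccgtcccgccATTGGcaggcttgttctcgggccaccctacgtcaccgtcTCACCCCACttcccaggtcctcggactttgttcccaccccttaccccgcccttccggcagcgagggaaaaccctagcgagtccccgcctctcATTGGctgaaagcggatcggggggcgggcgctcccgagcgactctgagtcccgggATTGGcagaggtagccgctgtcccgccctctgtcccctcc
Idi1: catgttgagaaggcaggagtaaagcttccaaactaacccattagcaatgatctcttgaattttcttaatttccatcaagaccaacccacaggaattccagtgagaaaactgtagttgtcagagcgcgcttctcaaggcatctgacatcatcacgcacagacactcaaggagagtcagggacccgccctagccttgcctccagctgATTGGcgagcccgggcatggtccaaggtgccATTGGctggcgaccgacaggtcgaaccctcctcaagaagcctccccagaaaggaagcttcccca

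Searched on both strands, the sterol regulatory element was found in the Hmgcs1 window alone among the 6, as TCACCCCAC at position -137, and in 1.24% of the 32851 windows of all genes. The E-box was found in Insig1 at -101 and in a second window of Dhcr7 at -164, and in 7.15% of all windows. The NF-Y box was in at least 1 window of each of the 6 genes (Srebf2, Insig1, Hmgcs1, Idi1, Lss and Dhcr7), with 4 copies in Hmgcs1, against 37.4% of all windows. The GC box GGGCGG, which Sp1 binds and which is left in lower case, was likewise in windows of all 6 genes and in 35.7% of all windows. Gene counts take any window of a gene, so they are not on the same footing as shares of windows. Of 12 other cholesterol synthesis enzymes with windows, 11 had the NF-Y box and 11 the GC box. For 8 genes of SREBP processing and sterol sensing the counts were 4 and 7, and for 5 of sterol uptake and transport 4 and 4. Neither box was thus particular to the 6 genes. These matches describe letters and say nothing about binding in these samples.

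Transcripts of 3 of the 8 genes were lower in cisplatin-treated than in saline-treated males. Insig1, Hmgcs1 and Idi1 fell, to 0.503 (Idi1) to 0.742 (Hmgcs1) of the saline level, and none of the 8 genes rose. In females none of the 8 passed the test. The log2 fold change lay below 0 for 7 of the 8 genes in males, all but Sqle, and for 7 in females, all but Fdft1, beside 47.7% and 48.4% of all tested genes. Averaged over the sexes, 5 of 8 fell: Insig1, Dhcr7, Idi1, Hmgcs1 and Lss.

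The share of the 8 genes called can be set beside that of all 18005 genes tested. Because the 8 were chosen with earlier results of these data known, the shares only describe and are no test of the set. In males 3 of 8 fell and 0 rose (edgeR), where 7.54% of all tested genes fell and 13.2% rose. By an unadjusted p under 0.05, 5 of the 8 and 36.0% of all genes differed in males, and DESeq2 called the same 3 genes lower and none higher. In females 0 of 8 fell or rose in edgeR, where 0.0722% of all genes fell and 0.2% rose; 2 of the 8 had an unadjusted p under 0.05 (14.8% of all genes), and DESeq2 called 1 (Dhcr7). Over both sexes 5 of 8 fell and 0 rose, where 10.9% of all genes fell and 16.2% rose; 6 of the 8 and 40.2% of all genes had an unadjusted p under 0.05, and DESeq2 called 6, Srebf2 being added. Of all 18005 genes DESeq2 called 1709 lower in males, 86 in females and 2393 over both sexes. EdgeR called 1357, 13 and 1970 lower. The median log2 fold change of the 8 genes was -0.35 in males, -0.21 in females and -0.29 over both, beside 0.02, 0.01 and 0.01 for all tested genes.

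Srebf2 encodes the transcription factor itself. Its gene lies at chr15:82147181-82205379 on the plus strand (GRCm38, as for all gene positions here). In male saline libraries its level ran from 110 to 141 CPM with a median of 121, and in male cisplatin libraries from 68.6 to 126 with a median of 105. The male groups overlapped, with 3 of 6 cisplatin libraries below every saline library. In females the saline libraries held 82.3 to 142 CPM (median 122), and the cisplatin libraries held 108, 121, 102, 85.2 and 94.8 CPM. All 5 female cisplatin values lay below the saline median and within the saline range. The log2 fold change was -0.27 ± 0.13 (SE) in males and -0.22 ± 0.13 in females (edgeR adjusted p = 0.146 and 0.452). The mean over the sexes was -0.24 ± 0.09 and just missed the threshold (edgeR adjusted p = 0.0574), which it passed in 8 of 30 alternatives (0.0172 to 0.121).

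Insig1 encodes the sterol-dependent anchor of SCAP and is a sensitive transcript of the SREBP2 response. It lies at chr5:28071363-28078662. Male saline libraries ran from 28.4 to 59.1 CPM (median 38.1) and male cisplatin libraries from 19.5 to 32.5 CPM (median 21.9). Of the 6 male cisplatin libraries, 5 lay below every saline library. Female saline libraries ran from 29.2 to 59.2 CPM (median 32.0), and the female cisplatin libraries held 21.4, 44.5, 26.4, 18.6 and 18.9 CPM. In females, 4 of 5 cisplatin libraries lay below all saline libraries, and library 2, at 44.5 CPM, lay among the higher saline values. Insig1 fell in males by 0.77 ± 0.23 on the log2 scale (edgeR adjusted p = 0.0235), while the female log2 fold change of -0.58 ± 0.24 did not pass (edgeR adjusted p = 0.265). Over both sexes it fell by 0.67 ± 0.17, to 0.627 of the saline level (edgeR adjusted p = 0.00529), a call kept in all 30 alternatives run. The male call was lost without male saline 1 (adjusted p = 0.0665), male saline 4 (0.0543) or male cisplatin 2 (0.0545), and without male cisplatin 5, female saline 1 and female saline 6 together (0.0534).

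Hmgcs1 encodes cytosolic HMG-CoA synthase, an early enzyme of the mevalonate route. The gene lies at chr13:119690379-119708260. Male saline libraries ran from 84.0 to 125 CPM (median 98.3) and male cisplatin libraries from 66.1 to 96.4 CPM (median 72.8). All male cisplatin libraries except library 3, at 96.4 CPM, lay below every saline library. Female saline libraries ran from 65.8 to 108 CPM (median 93.0), and the female cisplatin libraries held 73.0, 92.0, 98.5, 67.2 and 72.5 CPM, all within the saline range. Hmgcs1 fell in males by 0.43 ± 0.13 on the log2 scale (edgeR adjusted p = 0.025) and over both sexes by 0.29 ± 0.09 (adjusted p = 0.025). The female log2 fold change was -0.15 ± 0.13 (edgeR adjusted p = 0.606). The male call was lost without male saline 1 (adjusted p = 0.0663) or male saline 6 (0.0551), and the mean call without female cisplatin 4 (0.0595) or female cisplatin 5 (0.0518).

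Idi1 encodes isopentenyl-diphosphate isomerase, which interconverts the isoprene units from which the sterol skeleton is built. The gene lies at chr13:8885501-8892451 and was the least abundant of the 8 in CPM. Male saline libraries ran from 7.59 to 12.4 CPM (median 10.2) and male cisplatin libraries from 1.76 to 7.44 CPM (median 5.11). The male groups did not overlap, alone among the 8 genes, and 2.48% of all tested genes had all male cisplatin libraries below all male saline libraries. Library 5 of male cisplatin, at 1.76 CPM, was the lowest of the 24. Female saline libraries ran from 5.47 to 9.69 CPM (median 6.91), and the female cisplatin libraries held 5.52, 9.86, 7.28, 5.2 and 5.23 CPM. The female groups overlapped in both directions, with library 2 of cisplatin above every saline library; none of the 8 members separated in females, against 0.339% of tested genes. Idi1 fell in males by 0.99 ± 0.24 on the log2 scale (edgeR adjusted p = 0.00722), which held in all 19 alternatives run (0.000662 to 0.0476). The female log2 fold change was -0.20 ± 0.24 (edgeR adjusted p = 0.723).

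Fdft1 encodes squalene synthase, the first enzyme committed to sterols, and Sqle encodes squalene epoxidase, the next and a control point of the pathway. Neither passed the test in any comparison. Fdft1 held 26.0 to 34.9 CPM (median 29.0) in male saline and 22.6 to 26.4 CPM (median 25.3) in male cisplatin libraries. The log2 fold change in males was -0.25 ± 0.13 (edgeR adjusted p = 0.148), with all 6 cisplatin libraries below the saline median and 4 below every saline library. In females Fdft1 held 18.8 to 29.6 CPM (median 28.0) under saline and 20.2, 36.2, 26.4, 23.4 and 24 CPM under cisplatin, a log2 fold change of 0.00 ± 0.13 (edgeR adjusted p = 0.995). Fdft1, at chr14:63145150-63179578 on the minus strand, shares 774 of its 4227 exonic bases with Ctsb on the plus strand. Ctsb, a lysosomal protease, averaged 459 CPM against 26.6 CPM for Fdft1, and its log2 fold change was 0.08 in males (adjusted p = 0.628). No source used here gives the strand setting of the counting, so reads of the shared bases cannot be told apart.

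Sqle, at chr15:59315077-59331192, spread widely after cisplatin. Male saline libraries ran from 25.3 to 42.0 CPM (median 31.6) and male cisplatin libraries from 21.5 to 52.5 CPM (median 30.9). The male cisplatin libraries lay on both sides: 3 lay below every saline library, and library 3, at 52.5 CPM, lay above them all. Their SD was 12.3 CPM, against 5.77 CPM in male saline. Female saline libraries ran from 20.4 to 37.8 CPM (median 30.2), and female cisplatin libraries held 18.9, 39.0, 23.6, 26.5 and 38.9 CPM. Sqle thus differed from Idi1 and Insig1 in having no common direction, with log2 fold changes of 0.05 ± 0.21 in males and -0.03 ± 0.22 in females (edgeR adjusted p = 0.887 and 0.962). Whether its change differs from theirs was not tested.

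Lss encodes lanosterol synthase, which closes the sterol rings, and lies at chr10:76531588-76557138. Male saline libraries ran from 25.9 to 37.4 CPM (median 30.3) and male cisplatin libraries from 14.4 to 31.6 CPM (median 25.5). Female saline libraries ran from 25.6 to 36.4 CPM (median 29.8), and female cisplatin libraries held 24.9, 28.3, 30, 18.3 and 26.1 CPM. Most cisplatin libraries thus sat at the lower edge of the saline range, with 4 of 6 in males and 2 of 5 in females below it. Lss fell over both sexes by 0.28 ± 0.10 on the log2 scale (edgeR adjusted p = 0.0463). That call is marginal: it was lost in 17 of 30 alternatives, with adjusted p from 0.0184 to 0.106. In males alone the log2 fold change was -0.33 ± 0.14 (edgeR adjusted p = 0.103), and it passed without male cisplatin 6 (0.0354).

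Dhcr7 encodes 7-dehydrocholesterol reductase, which performs the last step of a route to cholesterol and lies at chr7:143823145-143848410. Male saline libraries ran from 12.1 to 18 CPM (median 15.0) and male cisplatin libraries from 8.44 to 13.9 CPM (median 11.8). Female saline libraries ran from 12.9 to 18.7 CPM (median 13.9), and female cisplatin libraries held 8.46, 15.6, 10.7, 7.93 and 7.36 CPM. In each sex, 4 cisplatin libraries lay below every saline library, and the exception in females was again library 2. Dhcr7 fell over both sexes by 0.48 ± 0.12 on the log2 scale, to 0.718 of the saline level (edgeR adjusted p = 0.00505), and this held in all 30 alternatives run. Within a sex neither change passed: -0.38 ± 0.16 in males (edgeR adjusted p = 0.0993) and -0.58 ± 0.17 in females (0.142). The female change passed with DESeq2 (adjusted p = 0.0469) and, in edgeR, without female cisplatin 2 (0.0151).

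**Figure D1:**
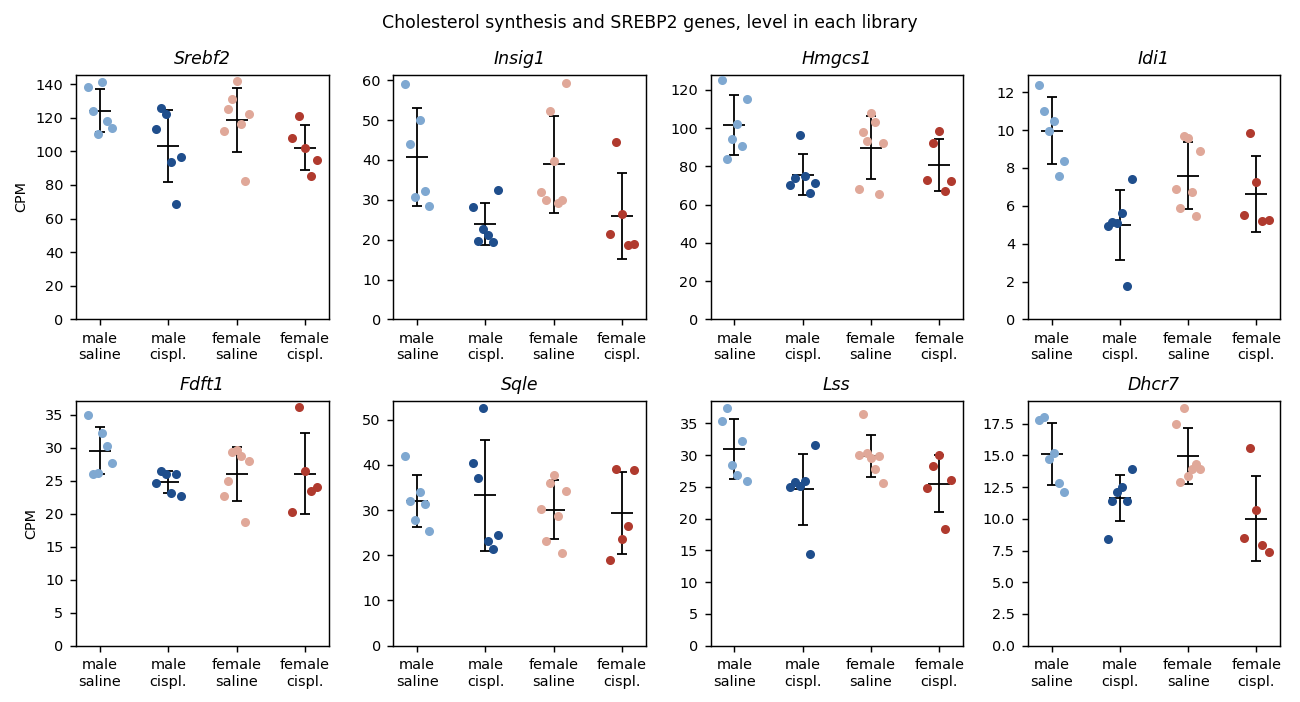
Level in CPM (y axis, from 0) of the 8 genes in each library, by group (x axis; cispl., cisplatin). Points are libraries, and black marks give the mean ± SD (n = 6, 6, 7 and 5). For Idi1 the male saline points (7.59 to 12.4 CPM) lie above all male cisplatin points (1.76 to 7.44 CPM), whereas the Sqle groups cover similar ranges.

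**Figure D2:**
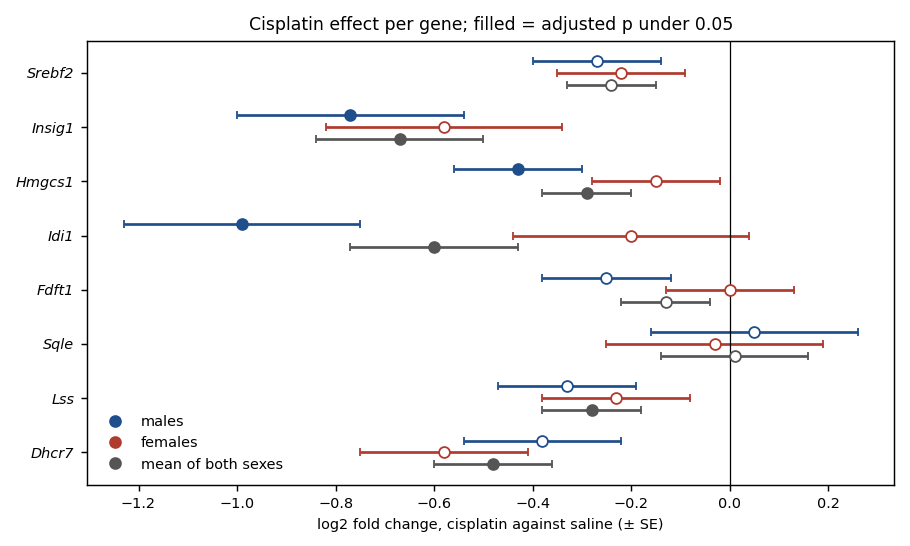
Log2 fold change, cisplatin against saline, with its SE (x axis) for each of the 8 genes (y axis) in males, in females and as the mean of both. Filled circles have an edgeR adjusted p under 0.05: 3 in males, 0 in females and 5 for the mean, all to the left of 0, while the Sqle values sit close to 0 at -0.03 to 0.05.

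Whether the cisplatin effect differed between the sexes was tested as an interaction. EdgeR called 0 of 8, and 0% of all 18005 genes. By an unadjusted p under 0.05, 1 member and 4.29% of all genes differed, and DESeq2 called 0 of the 8. That member was Idi1, whose log2 fold change was less negative in females (-0.20) than in males (-0.99), a difference of 0.79 ± 0.34 (unadjusted p = 0.0267 and adjusted p = 0.943 from edgeR's quasi-likelihood test). Its mean level was 9.98 ± 1.76 CPM (SD, n = 6) in male saline and 5.00 ± 1.84 (n = 6) in male cisplatin, beside 7.60 ± 1.77 (n = 7) and 6.62 ± 2.00 (n = 5) in females. Idi1 thus started from a lower mean in saline females than in saline males. The difference under saline, -0.39 ± 0.23 on the log2 scale, female against male, did not pass (edgeR adjusted p = 1).

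Between the sexes under saline, all 8 log2 fold changes lay below 0, from -0.39 (Idi1) to -0.01 (Dhcr7), as did 48.6% of all tested genes, and none of the 8 passed. EdgeR called 0 of 8 and 0.189% of all genes. By an unadjusted p under 0.05, 0 of 8 and 3.22% of all genes differed, and DESeq2 called 0 of the 8. Under cisplatin the differences ran from -0.22 (Dhcr7) to 0.40 (Idi1). There edgeR again called 0 of 8, and 0.156% of all genes. By an unadjusted p under 0.05, 0 of 8 and 9.72% of all genes differed, and DESeq2 called 0 of the 8.

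Levels of different genes can be compared only per length. In CPM per kilobase of annotated exons, the male saline order was Hmgcs1 (22.2 ± 3.39, SD, n = 6), Srebf2 (17.3 ± 1.78), Insig1 (13.2 ± 3.98), Fdft1 (6.99 ± 0.844), Sqle (5.78 ± 1.04), Lss (2.87 ± 0.436), Idi1 (2.85 ± 0.503) and Dhcr7 (2.60 ± 0.423). Neighbours in this order overlap within 1 SD, except Insig1 against Fdft1 and Sqle against Lss. Lengths count every annotated exon of a gene, which for Lss comes to 10787 bases, so a gene with long rare exons is placed too low. In female saline libraries the first 5 places were the same, from 19.5 ± 3.60 (Hmgcs1, n = 7) to 5.41 ± 1.18 (Sqle, n = 7), and Idi1 came last at 2.17 ± 0.504. Insig1 was the most variable of the 8 within saline groups, with a coefficient of variation of 30.2% in males and 31.3% in females.

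Among 14 other tested enzymes of the pathway, 2 rose and 0 fell in males, a share near the 13.2% of all genes that rose. None passed in females (edgeR), where 1 had an unadjusted p under 0.05 (14.8% of all genes) and DESeq2 called 0. Over both sexes 2 rose and 1 fell, beside 16.2% and 10.9% of all genes. The median log2 fold change of the 14 over both sexes was -0.04, beside -0.29 for the 8 genes. Both lists were chosen with earlier results of these data known. Pmvk, which encodes phosphomevalonate kinase, rose in males by 1.09 ± 0.22 on the log2 scale (edgeR adjusted p = 0.0022). Male cisplatin libraries held 22.4 to 55.0 CPM of Pmvk and male saline libraries 16.5 to 20.5 CPM. How many of all tested genes had every male cisplatin library above every male saline library was not counted. Tm7sf2, a sterol reductase, also rose in males (0.52 ± 0.14, edgeR adjusted p = 0.0124), and Hsd17b7, a 3-ketosteroid reductase of the pathway, fell over both sexes by 0.35 ± 0.11 (adjusted p = 0.021).

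The next group senses sterols and activates SREBP2. Of 11 such genes, 0 passed in males, in females or over both sexes (edgeR), and 1, 0 and 1 had an unadjusted p under 0.05. Of all genes, 36.0%, 14.8% and 40.2% had an unadjusted p under 0.05, in the same order. DESeq2 called 1 of the 11 in males, Insig2, and 0 in females and over both sexes. Scap, the escort, had a log2 fold change of 0.02 ± 0.07 in males, Insig2, the second anchor, of -0.21 ± 0.08 (edgeR adjusted p = 0.0609), and Srebf1, which encodes the related factor SREBP1, of -0.01 ± 0.10.

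Among 9 genes of sterol uptake and transport, 1 rose and 1 fell in males, 0 passed in females, and 0 rose and 2 fell over both sexes (edgeR). Of all genes, 13.2% rose and 7.54% fell in males, and 16.2% rose and 10.9% fell over both sexes. In females 0 of the 9 had an unadjusted p under 0.05 (14.8% of all genes), and DESeq2 called 0. Npc1, which exports cholesterol from lysosomes, fell in males by 0.54 ± 0.15 (edgeR adjusted p = 0.0166), and Lipa, the lysosomal lipase, fell over both sexes by 0.44 ± 0.15 (0.0322, lost in 10 of 30 alternatives). Scarb1, a receptor for high-density lipoprotein, rose in males by 0.30 ± 0.10 (edgeR adjusted p = 0.0323, lost in 12 of 19 alternatives).

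Of 8 genes of sterol efflux, esterification and the sterol-sensing LXR receptors, 2 rose and 1 fell in males, 0 passed in females, and 2 rose over both sexes (edgeR). The shares of all genes were 13.2% higher and 7.54% lower in males, and 16.2% higher over both sexes. In females 2 of the 8 had an unadjusted p under 0.05 (14.8% of all genes), and DESeq2 called 0. Nr1h2, which encodes LXR beta, rose in males by 0.42 ± 0.09 (edgeR adjusted p = 0.00256). Nr1h3, which encodes LXR alpha, fell in males by 0.50 ± 0.17 (0.0395), a call lost in 11 of 19 alternatives. Lcat, the enzyme that esterifies cholesterol on lipoproteins, rose over both sexes by 0.67 ± 0.19 (edgeR adjusted p = 0.0107) and in males by 0.73 ± 0.26 (below the threshold by less than rounding shows, and lost in 16 of 19 alternatives). The transporters Abca1 and Abcg1, which are LXR targets, had log2 fold changes of -0.04 ± 0.14 and -0.39 ± 0.17 over both sexes and did not pass (edgeR adjusted p = 0.863 and 0.0799).

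Fatty acid synthesis depends more on SREBP1. Of 10 of its genes 5 fell and 1 rose over both sexes, 1 fell in males and 0 passed in females (edgeR). Among all genes, 10.9% fell and 16.2% rose over both sexes, and 7.54% fell in males. In females 5 of the 10 had an unadjusted p under 0.05 (14.8% of all genes), and DESeq2 called 1 (Fasn). In males DESeq2 called 3 (Acaca, Acly and Acss2). Scd1, a fatty acid desaturase, fell by 0.53 ± 0.18 (edgeR adjusted p = 0.0341, lost in 13 of 30 alternatives), and Acaca, acetyl-CoA carboxylase, by 0.37 ± 0.10 (0.00804). Acss2, which makes acetyl-CoA from acetate, fell by 0.34 ± 0.08, and Fasn, fatty acid synthase, by 0.27 ± 0.08 (edgeR adjusted p = 0.00352 and 0.0209). Acly, ATP citrate lyase, fell by 0.23 ± 0.06 (edgeR adjusted p = 0.012), and Fads2, a desaturase of polyunsaturated fatty acids, rose by 0.62 ± 0.20 (0.0244). Acss2 was the gene that fell in males, by 0.55 ± 0.11 (edgeR adjusted p = 0.00223). In the isoprenoid branch, 2 of 7 rose over both sexes and 0 fell, beside 16.2% and 10.9% of all genes. The 2 that rose were Fntb, a farnesyltransferase subunit (0.48 ± 0.11, edgeR adjusted p = 0.0037), and Pggt1b, a subunit of a related prenyltransferase (0.17 ± 0.05, 0.0269).

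**Figure D3:**
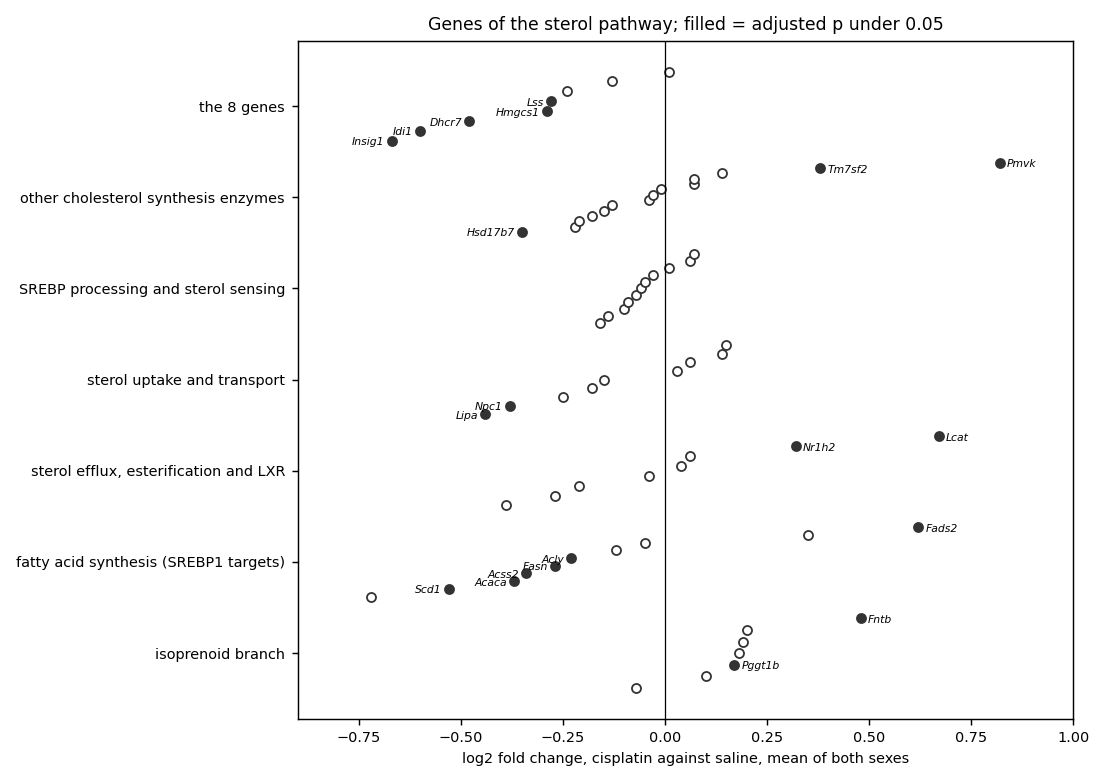
Log2 fold change, cisplatin against saline, mean of both sexes (x axis), for each tested gene of the pathway lists (rows; height within a row only spreads the points). Filled, named points have an edgeR adjusted p under 0.05. Of the 8 genes 5 are filled, all left of 0, while the 14 other enzymes have 2 filled points to the right, with Pmvk at 0.82, and 1 to the left.

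Markers of other cell types also differed between the groups. A tubule marker score, the mean log2 CPM of the markers of thick ascending limb and proximal tubule, ran from 4.29 to 5.86 in male saline, 2.87 to 5.42 in male cisplatin, 3.36 to 5.02 in female saline and 3.00 to 4.88 in female cisplatin libraries. Under saline, 2 of the 16 proximal tubule markers were lower in females than in males, beside 0.189% of all genes called in either direction. The lowest log2 fold change was -4.66, so differences of the score between the sexes need not reflect tissue content. With this score in the model as a covariate, 1 of 8 genes fell in males (Idi1, log2 fold change -0.86, edgeR adjusted p = 0.0476), and the log2 fold changes of Insig1 and Hmgcs1 were -0.65 (0.105) and -0.27 (0.174). Over both sexes 2 of 8 remained, Insig1 (-0.60, edgeR adjusted p = 0.0368) and Dhcr7 (-0.39, 0.0379). The calls of Lss, Idi1 and Hmgcs1 were lost, at log2 fold changes of -0.305, -0.498 and -0.173 (edgeR adjusted p = 0.0699, 0.0742 and 0.207), beside -0.28, -0.60 and -0.29 without the score. With the score in the model, 3.02% of all tested genes fell in males and 6.65% over both sexes. In males 5 of 7 fibroblast and 4 of 6 endothelial markers fell, 3 of 6 urothelial markers rose, and 2 of 11 macrophage markers rose and 2 fell. Without the score, 7.54% of all tested genes fell in males and 13.2% rose. Of the tubule and duct markers in males, 1 of 6 of thick ascending limb (median log2 fold change -0.86), 2 of 9 of principal cells (0.03) and 2 of 7 of intercalated cells (-0.24) fell, and none of 16 of proximal tubule passed (-0.53). Of the thin limb markers 1 of 6 rose and 0 fell in males (median log2 fold change -0.21). Their sums ran from 6770 to 8090 CPM in male saline and 4710 to 7960 CPM in male cisplatin. Summed fibroblast markers ran from 519 to 637 CPM in male saline and 105 to 457 CPM in male cisplatin, and summed endothelial markers from 1860 to 2290 and 603 to 2270 CPM. Adrenal cortex markers, from a gland rich in cholesterol metabolism, summed to 5.66 to 12.3 CPM over 5 genes, and 1 of them was at 0 throughout each group (Hsd3b1 in female cisplatin, Cyp11b1 in the others). Only 2 of the 5 had enough counts to be tested: Cyp21a1, at 0 to 0.911 CPM, fell over both sexes by 1.55 ± 0.53 on the log2 scale (edgeR adjusted p = 0.0319), and the log2 fold change of Star, at 5.04 to 12.1 CPM, was 0.11 ± 0.12 (0.548). Adipocyte markers summed to 28.7 to 124 CPM over 5 genes. Without male cisplatin 5, female saline 1 and female saline 6, Hmgcs1 and Idi1 fell in males (5.9% of all genes), 0 of the 8 passed in females, and 5 fell over both sexes (10.3% of all genes), with Srebf2 (edgeR adjusted p = 0.0172) in place of Lss (0.0746). The part of fibroblasts, endothelium, urothelium, macrophages, thin limbs, duct and adrenal cells and adipocytes in the lower cholesterol transcripts was not tested.

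Among saline libraries, with each sex centred on its mean, Hmgcs1 had the highest correlation with the tubule score (Pearson r = 0.66, permutation p = 0.0158; Spearman rho = 0.60, p = 0.0313; n = 13). The Benjamini-Hochberg adjusted p over the 8 genes was 0.109, and r was 0.45 without the 2 libraries farthest from the median of the score. Insig1 had r = 0.25 and Dhcr7 r = 0.087 with the same score (permutation p = 0.412 and 0.773). No gene passed the adjustment.

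How strongly a library was injured was compared with its cholesterol transcripts. The injury score, the mean log2 CPM of the tested tubular injury genes, ran from 4.69 to 6.89 in male cisplatin and from 4.76 to 6.84 in female cisplatin libraries, against 4.38 to 4.76 in all saline libraries. The score of female cisplatin 2 (4.76) equalled, as rounded, the highest saline score, which was that of a female library. Male cisplatin 6 (4.69) lay below that score but above all male saline libraries (4.38 to 4.62). Male cisplatin 6 had the highest male cisplatin level of Insig1, Idi1, Lss and Dhcr7, and female cisplatin 2 the highest female cisplatin level of Srebf2, Insig1, Idi1, Fdft1, Sqle and Dhcr7. Without male cisplatin 6, 4 of 8 genes fell in males, beside 12% of all genes (edgeR). Without female cisplatin 2, 1 of 8 fell in females and 6 of 8 over both sexes, beside 0.109% and 11.7% of all genes. Leaving out a library with the highest levels of several of these genes lowers their cisplatin means by construction. These counts are therefore no test of a link with injury. Without female cisplatin 3, whose Lcn2 was also close to saline, 0 of 8 fell in females and 0.186% of all genes did. Over the 11 cisplatin libraries, each sex centred on its mean, Dhcr7 had r = -0.67 (permutation p = 0.0209; Spearman rho = -0.79, p = 0.00534) and Insig1 r = -0.63 (p = 0.0352; rho = -0.75, p = 0.01). Both had an adjusted p of 0.141 over the 8 genes. Without the 2 libraries farthest from the median score, male cisplatin 6 and female cisplatin 4, r was -0.62 and -0.46. Sqle had r = 0.39 (permutation p = 0.227). Within the 6 male cisplatin libraries Fdft1 had r = 0.90 (exact permutation p = 0.0181; Spearman rho = 0.83, p = 0.0583; adjusted p = 0.144), which rests on 2 libraries, since r was 0.093 without male cisplatin 4 and 6. Of the 24 relations computed, 8 genes in 3 sets of libraries, none passed the adjustment.

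The 8 genes varied together from library to library. All 28 pairwise correlations of log2 CPM over the 24 libraries lay above 0, with a median r of 0.57, and of 0.46 after the mean of each group was subtracted. Over the 24 libraries the highest was Insig1 with Idi1 (0.78, and 0.69 within groups) and the lowest Sqle with Dhcr7 (0.16 and 0.15). Within groups the highest was Srebf2 with Idi1 (0.70) and the lowest Fdft1 with Lss (0.016). These r values describe 24 points that share depth and tissue makeup within a library. The same values for pairs of other tested genes were not computed. Whether the correlations are particular to the 8 genes was therefore not tested. Measured over the 24 libraries against the mean of the 8 standardised levels, Srebf2 itself (0.88) and Idi1 (0.87) followed it most closely and Sqle (0.58) least. Each of the 8 is part of this mean, which raises its own r but not that of genes outside the 8. Within groups Srebf2 and Idi1 were again highest (both 0.84), and Lss (0.58) and Dhcr7 (0.60) were lowest, with Sqle at 0.69. Outside the 8, the genes most like this mean among those reported here were Slc25a16 (r = 0.86, and 0.78 within groups), Stard4 (0.86, 0.83), a sterol carrier, and Hsd17b7 (0.85, 0.79). Pitrm1 (0.85), Nsf (0.84), Tmem41b (0.83), Usf3 (0.82), Vps33a (0.81), 6430511E19Rik (0.81) and Tbc1d24 (0.80) completed the 10 highest. Of the 10, 2 were genes of the sterol lists: Stard4 and Hsd17b7.

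**Figure D4:**
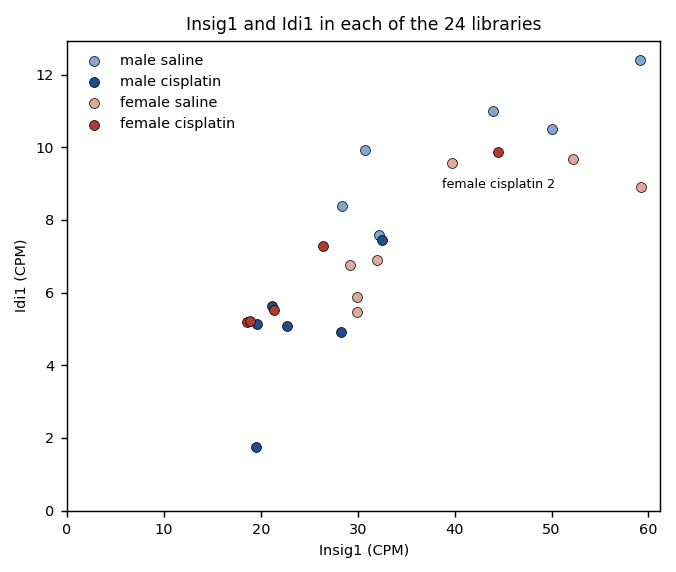
Insig1 (x axis) and Idi1 (y axis) in CPM in each of the 24 libraries, coloured by group. The lowest Idi1 library is male cisplatin 5, at 19.5 CPM for Insig1 and 1.76 CPM for Idi1, and the highest is male saline 1, at 59.1 and 12.4 CPM. Female cisplatin 2, at 44.5 and 9.86 CPM, lies with the upper saline libraries.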

How the data were processed

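RNA was sequenced from 24 inner medulla libraries. The authors deposited whole-number counts per Ensembl gene. Build mm10 and the tools Subread 2.0.1, featureCounts, Trim Galore 0.6.7 and DESeq2 1.28.1 appear in the submitters' processing notes. The aligner, the strand setting and the annotation release were not given in the sources used here. Symbols were found for 52083 of 55416 identifiers, and the rest held 0.24% of the counts. Gene positions and exon lengths came from GENCODE M21 (GRCm38).

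The 8 genes and the gene lists were chosen with earlier results of these data known. From the deposited counts, 18005 genes passed filterByExpr of edgeR 4.0.16 in R 4.3.3 (minimum count 10). All libraries were fitted together with TMM scaling and a mean per group, without a block. Quasi-likelihood tests were adjusted by Benjamini-Hochberg over all tested genes, with 0.05 as threshold, after a test of the script on simulated data. CPM use TMM-scaled library sizes, and log2 CPM a prior count of 2. Correlations used SciPy 1.17.1, with exact permutation p below 10 values and 100000 resamples otherwise. The 8 genes were all named. From each list up to 5 genes past the threshold were named, largest change first, with Insig2, Scap and Srebf1 always. Acly, Abca1, Abcg1 and Cyp21a1 were named after their values were seen. Among the genes reported, the 10 most like the mean of the 8 were also named. Some genes of the lists are not reported here.

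Alternatives were RLE factors, no filter, DESeq2 1.42.0, each sex alone, the tubule score, a replicate block and omission of each library. Male cisplatin 5, female saline 1 and female saline 6 were also omitted together. An earlier examination of these data had seen them differ in composition, which is not shown here. No library copied another (chi-square per gene at least 7.48 over 61 pairs within groups).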

Additional observations from a re-analysis of the deposited data

Results flagged for a closer look

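The highest library of a group was set apart from its nearest neighbour for 1 of the 44 gene and group combinations examined. Chance sets apart about 1 in 20 such groups. Hmgcs1 in male cisplatin 3 was 96.4 CPM, and the next value of that group was 75.2 CPM, a gap of 0.701 of the whole range.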

How the results depend on the processing

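Of the counts of called members under the alternatives, 127 stayed within 1.5 times the value reported, 5 were lower and 2 higher. In females, in the interaction and between the sexes the value reported was 0, which cannot become lower. All 5 lower counts were therefore in males or over both sexes. The number of the 8 genes called in males was 1 with the tubule marker score as covariate. In females it was 1 with DESeq2, and over both sexes 2 with the tubule score. Omitting a single library gave 1 to 4 called genes in males, 0 to 1 in females and 3 to 6 over both sexes, the lowest without male saline 1 (1), female cisplatin 4 (3) or female cisplatin 5 (3), and the 1 in females without female cisplatin 2. Replicate numbers did not pair the libraries (median r of centred values -0.0919 to 0.13 over the 6 pairs of groups). With the replicate block 3 genes were called in males, 0 in females and 6 over both sexes, Srebf2 (adjusted p = 0.0438) being added.

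Log2 fold changes near 0 changed sign, and the cause was not tested. For Sqle these were -0.032 in males with the tubule score, and over both sexes -0.003 without a filter, -0.055 with the tubule score and -0.016 with the replicate block. For Fdft1 in females they were -0.003 with RLE factors and with DESeq2, -0.006 without a filter and -0.022 with the replicate block. Without male cisplatin 5, female saline 1 and female saline 6 together, Fdft1 in females was -0.11 and Srebf1 in males 0.027. Omitting a library gave Sqle -0.125 to 0.142 in males, -0.154 to 0.092 in females and -0.077 to 0.071 over both, Fdft1 -0.146 to 0.081 in females, Scap -0.003 to 0.054 and Srebf1 -0.088 to 0.043 in males. Over all tested genes, females had 36 genes higher and 13 lower by edgeR, 155 and 86 by DESeq2, 68 and 17 without a filter, 17 and 10 with the tubule score, 12 and 8 alone, and 9 and 7 with the replicate block. Males had 2374 and 1357, against 1306 and 543 with the tubule score and 1491 and 911 alone. Over both sexes 2911 and 1970 became 1807 and 1197 with the score. Omitting a single library moved the female counts to between 13 (without female cisplatin 4) and 105 (without female cisplatin 3) higher and between 5 (without female cisplatin 5) and 34 (without female cisplatin 3) lower, and each of the 12 female libraries moved at least 1 of them by over 1.5 times. In males the lower count was 762 without cisplatin 2, 799 without cisplatin 3 and 2152 without cisplatin 6, and over both sexes it was 1313 without female cisplatin 4. Depth is least for Idi1, whose lowest library held 1.76 CPM.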

Other observations

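The saline libraries can be split into an upper and a lower set for Insig1, a split picked out after its values were seen. The break from 32.2 to 39.7 CPM was little wider than the step from 52.2 to 59.1 CPM within the upper set. Whether the values form separate sets was not tested. Male saline 1, 2 and 4 and female saline 3, 4 and 7 held Insig1 at 39.7 to 59.2 CPM, and the other 7 saline libraries at 28.4 to 32.2 CPM. Libraries of both sexes stood in each set. Among the cisplatin libraries female cisplatin 2 held the highest Insig1 value (44.5 CPM), and the highest of the other 10 was 32.5 CPM.

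Over the 13 saline libraries, after the mean of each group was subtracted, the 20 genes most correlated with Insig1 among those reported here included 4 of the sterol pathway. These were Msmo1 (r = 0.88), a sterol demethylation enzyme, Idi1 (0.83), Hsd17b7 (0.81) and Sqle (0.79). The sterol lists reported make up 67 of the 18005 tested genes (0.372%).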
